A study of Homo sapiens with 4 samples.

Results

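The genes described here encode 5 classes of enzymes, many of which place or remove small chemical marks on histones. The classes are the histone deacetylases (HDAC), the sirtuins (SIRT), the lysine demethylases (KDM), the lysine acetyltransferases (KAT) and the SETD methyltransferases. The genes were chosen by symbol. Every row was taken whose name starts with HDAC, SIRT, KDM, KAT or SETD directly followed by a digit and holds no hyphen. The Y-linked KDM5D was left out. This gave 51 of the 16376 listed genes, with 11 HDAC, 7 SIRT, 16 KDM, 7 KAT and 10 SETD genes. Their RNA was measured by poly(A)-selected RNA-seq in HCT116 cells, an established line from a human colon carcinoma, in 2 samples given H2O2 (hydrogen peroxide, a membrane-permeant oxidant) and 2 Control samples. Dose and exposure time are missing from the labels, which also do not say whether replicates were grown as separate cultures, so every p-value measures the spread between these samples, which may be technical.

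Acetyl groups on histone lysines are written by acetyltransferases and erased by zinc-dependent deacetylases and by sirtuins, which need NAD+. Methyl groups are written by SET-domain enzymes and erased by flavin-dependent demethylases or by JmjC demethylases, which need iron, oxygen and 2-oxoglutarate. Through these cofactors several classes are tied to the metabolism and redox state of the cell. Many members also act on substrates other than histones, and some, such as HDAC10, prefer them.

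The authors deposited group means of normalized counts with their test of each gene. Whole reads per gene in each of the 4 libraries could be solved exactly from these means. No library is tied to a replicate number, so within a group they are told apart by depth, as deeper and shallower. Control was read from the columns marked A and H2O2 from those marked B, following the naming of the table, and every direction depends on this reading. Listed genes took 7365032 and 6858809 reads in the H2O2 libraries, and 7309731 and 6892854 in the Control libraries. The 51 enzyme genes took 0.359% and 0.364% of the reads in the H2O2 libraries and 0.406% and 0.384% in the Control libraries. The 2 Control libraries differed from each other more (chi-square per degree of freedom over genes 6.77) than the 2 H2O2 libraries did (2.31). Of 8 epithelial marker genes 7 were listed, with summed normalized counts of 9421 and 9017 in the H2O2 libraries and 7583 and 9019.8 in the Control libraries, and none was called. Of 6 fibroblast markers COL1A1, COL3A1 and PDGFRB were listed (summed 813 and 754 with H2O2, 1017 and 933 in Control, COL1A1 called lower in the authors' deposited table), and COL1A2, DCN and LUM were not. Of 6 immune markers CD14 and CD68 were listed (summed 27.03 and 22.9 with H2O2, 8.63 and 17.5 in Control, CD14 called higher in the authors' deposited table), and of 4 endothelial markers KDR, at 13.5 and 8.32 with H2O2 and 6.71 and 6.16 in Control. PTPRC, CD3E, LYZ, PECAM1, CDH5 and VWF were not listed. The part of these markers in the results was not tested.

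Most of the enzyme genes did not pass the threshold with H2O2. In the authors' deposited table, at a Benjamini-Hochberg adjusted p under 0.05, HDAC10, KDM5A and KAT6A were called lower, KDM4D was called higher, and 47 of the 51 were not called. The 3 lower calls are 5.88% of the enzyme genes, against 4.62% of all listed genes, and the 1 higher call is 1.96%, against 2.58% (7.19% in either direction), so the shares were near the background. HDAC10 and KDM4D were the 2 members with a log2 ratio past 1 in either direction, and none of the other 49 passed 0.5. limma, run across all genes on the log2(normalized count + 1) values of the recovered libraries, called HDAC10 alone among the 51, against 2.58% of all listed genes called lower and 1.52% called higher.

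HDAC10 encodes a class IIb deacetylase of the cytoplasm that prefers acetylated polyamines. It had 16 and 17 reads in the H2O2 libraries and 47 and 50 reads in the Control libraries, or normalized counts of 15.4 and 17.7 with H2O2 against 45.1 and 51.3 in Control. The groups lay far apart relative to the spread within each. The fall was to 0.344 of the Control mean in the authors' deposited table (adjusted p = 5.74e-04), and limma gave a log2 fold change of -1.49 ± 0.29 (SE, 2 libraries per group, adjusted p = 0.00876). HDAC10 was lower in all 4 limma fits that left out a library, with log2 fold changes from -1.58 to -1.39. Its counts are uncertain, because 2763 of its 4951 exonic bases over all transcripts in GENCODE release 29 (55.8%) are shared with MAPK12 on the same strand. MAPK12 had normalized counts of 1168 and 1184 with H2O2 and 1425 and 1479 in Control, with a log2 ratio of -0.30 and an adjusted p of 0.141 in the authors' deposited table.

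KDM4D encodes a small JmjC demethylase of histone H3 lysine 9 that lacks the reader domains of its KDM4 relatives. It had 47 and 48 reads with H2O2 and 20 and 27 reads in Control, so the libraries of the groups did not overlap. That held in this direction for 26.3% of all listed genes. The ratio was 2.03 in the authors' deposited table (adjusted p = 0.0299). limma gave a log2 fold change of 1.01 ± 0.28 (SE, 2 libraries per group, adjusted p = 0.0583), which did not pass. In the limma fits that left out a library, its log2 fold change ran from 0.76 to 1.27. None of its 75-base words occurs in transcripts of other genes.

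KDM5A encodes a demethylase of trimethylated H3 lysine 4, and KAT6A the MYST acetyltransferase MOZ. KDM5A had normalized counts of 374 and 371 with H2O2 and 608 and 422 in Control. KAT6A had 713 and 758 with H2O2 and 1221 and 732 in Control. The deeper Control library was thus the high one for both, and for KAT6A the shallower Control library lay between the 2 H2O2 libraries. In the authors' deposited table their ratios were 0.724 for KDM5A (adjusted p = 0.0187) and 0.754 for KAT6A (adjusted p = 0.0255), and limma called neither (adjusted p = 0.117 and 0.257). Without the deeper Control library the limma log2 fold change was -0.18 for KDM5A and 0.0070 for KAT6A. Without the shallower one it was -0.70 and -0.73. Each of these fits keeps a lone Control library, so its spread comes from the H2O2 libraries alone.

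**Figure D1:**
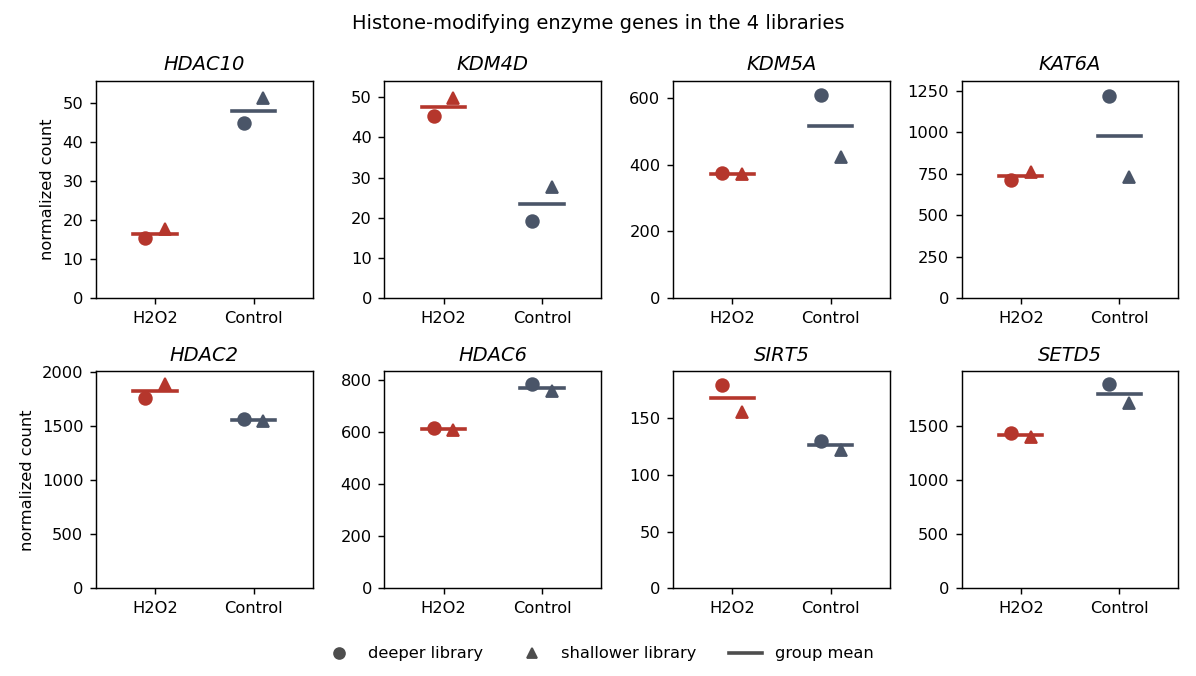
Normalized counts (y axis, from 0) of 8 enzyme genes in the 2 H2O2 libraries and the 2 Control libraries, with circles for the deeper and triangles for the shallower library and horizontal lines for group means. The groups overlap for KAT6A alone among the 8. For KDM5A and KAT6A the deeper Control library, at 608 and 1221, stands above the other 3.

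The promoters of HDAC10, KDM4D and KDM5A are shown because these genes were called in the authors' test with libraries that did not overlap. The sequences are RefSeq's on GRCh38.p14, 250 bases before to 50 bases after the gene start, 5′ to 3′ on the gene's strand, from chr22:50251216-50251515 (minus strand) for HDAC10, chr11:94973459-94973758 (plus strand) for KDM4D and chr12:389271-389570 (minus strand) for KDM5A. Capitals mark matches on either strand to GGGCGG (the GC box), CCAAT (the CCAAT box), TATAAA (the TATA box), TGANTCA (the AP-1 site), TGACNNNGC (the core of the antioxidant response element) or CACGTG (E-box).
HDAC10: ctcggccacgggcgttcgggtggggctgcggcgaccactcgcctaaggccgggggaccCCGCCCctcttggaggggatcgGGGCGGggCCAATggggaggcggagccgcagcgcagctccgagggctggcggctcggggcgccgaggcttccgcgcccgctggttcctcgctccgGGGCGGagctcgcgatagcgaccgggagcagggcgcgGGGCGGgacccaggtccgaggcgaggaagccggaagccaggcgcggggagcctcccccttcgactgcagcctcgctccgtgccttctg
KDM4D: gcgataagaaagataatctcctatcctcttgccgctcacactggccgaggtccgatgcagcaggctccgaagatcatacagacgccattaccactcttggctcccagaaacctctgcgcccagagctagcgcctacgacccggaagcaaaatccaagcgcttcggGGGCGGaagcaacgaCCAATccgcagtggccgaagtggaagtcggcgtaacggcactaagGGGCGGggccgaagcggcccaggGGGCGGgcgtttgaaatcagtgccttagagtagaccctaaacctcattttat
KDM5A: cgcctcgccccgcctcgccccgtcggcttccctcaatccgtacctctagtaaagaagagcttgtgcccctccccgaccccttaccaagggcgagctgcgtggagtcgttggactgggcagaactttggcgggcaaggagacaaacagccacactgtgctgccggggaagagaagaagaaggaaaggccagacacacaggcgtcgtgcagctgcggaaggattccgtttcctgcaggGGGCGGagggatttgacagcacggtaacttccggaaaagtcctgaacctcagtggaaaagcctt
HDAC10 held 4 GC boxes and 1 CCAAT, KDM4D 3 GC boxes and 1 CCAAT, and KDM5A 1 GC box, and none of the 3 windows held a match to the other 4 motifs. A promoter of this length was found for 46 of the 51 members. GGGCGG was present in 67.4% of the 46, against 44.6% of all 27305 promoters in the table, CCAAT in 37.0% against 35.7%, and TATAAA in 0 of 46 against 12%. The AP-1 letters were found in KDM6A, HDAC9 and KDM4C (6.52% against 7.76%), and the antioxidant response core in SETD6, SIRT6 and KDM4C (6.52% against 13.6%). CACGTG was found in 6 of the 46, or 13.0% against 7.43%. The median GC content was 65.8% for these promoters and 58.3% for all. These matches describe letters and not factor binding.

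Of the class I deacetylases, HDAC1 and HDAC2 work in the nucleus within the Sin3, NuRD and CoREST complexes. HDAC2 had normalized counts of 1753 and 1888 with H2O2 and 1563 and 1539.7 in Control. Its paralog HDAC1 had 886 and 894 with H2O2 and 996 and 1006 in Control. The libraries of the groups overlapped for neither gene, with HDAC2 higher, as were 26.3% of all listed genes, and HDAC1 lower, as were 25.6%. Neither passed (log2 ratios of 0.23 and -0.17, adjusted p = 0.32 and 0.505 in the authors' deposited table). The count of HDAC2 over that of HDAC1 was 1.98 and 2.11 in the H2O2 libraries and 1.57 and 1.53 in the Control libraries, a pair chosen after its values were seen, and 2 samples against 2 cannot give an exact permutation p under 0.333. HDAC3, the catalytic subunit of NCoR complexes, had 1111 and 1085 with H2O2 and 1016 and 1133 in Control, and HDAC8, which deacetylates cohesin, 174 and 166 with H2O2 and 174 and 164 in Control. Neither separated the groups.

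The class IIa deacetylases, which shuttle between nucleus and cytoplasm, all had ratios below 1. HDAC7 had 414 and 357 with H2O2 and 509.9 and 493 in Control, with a log2 ratio of -0.38 and an adjusted p of 0.0893 in the authors' deposited table. HDAC4 had 226 and 199 with H2O2 and 270.3 and 238 in Control. For HDAC5 and HDAC9, whose libraries overlapped, the authors' deposited table gives log2 ratios of -0.095 and -0.038. HDAC6, the class IIb tubulin deacetylase, had 615 and 607 with H2O2 and 785 and 758 in Control, with tight pairs in both groups, and did not pass (log2 ratio -0.34, adjusted p = 0.114 in the authors' deposited table). In the limma fits that left out a Control library, whose spread comes from the H2O2 libraries alone, HDAC6 passed without the deeper one and without the shallower one at adjusted p = 0.0483 and 0.00646, and HDAC7 at 0.046 and 0.00749. Those fits called 4.81% and 11.6% of all listed genes lower, and 3.71% and 10.6% higher, against 1.1% and 1.84% lower and 0.635% and 1.29% higher in the fits that left out the deeper and the shallower library of the H2O2 group. HDAC11, the class IV enzyme that removes fatty acyl groups, had 265 and 249 with H2O2 and 255 and 251 in Control.

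Of the 7 sirtuins none was called. SIRT7, a nucleolar deacetylase, had 595 and 561 with H2O2 and 646 and 860.2 in Control, so both H2O2 libraries lay below both Control libraries (log2 ratio -0.38, adjusted p = 0.0683 in the authors' deposited table). SIRT5, the mitochondrial desuccinylase, had 179.5 and 156 with H2O2 and 130.4 and 122 in Control, with groups that did not overlap. Its log2 ratio was 0.41 (adjusted p = 0.174 in the authors' deposited table). Of all listed genes 25.6% were lower and 26.3% higher without overlap. The mitochondrial deacetylase SIRT3 had 243 and 242 with H2O2 and 305 and 265 in Control, and SIRT4, also mitochondrial, 54.1 and 46.8 with H2O2 and 38.3 and 57.5 in Control. For SIRT1, SIRT2 and SIRT6, deacetylases of p53, tubulin and H3 lysine 9 among other substrates, the 2 Control libraries enclosed or overlapped the H2O2 libraries, with log2 ratios of 0.057, 0.076 and 0.13 in the authors' deposited table. SIRT2 had 245 in the deeper and 344 in the shallower Control library, a gap wider than that between its group means of 310.5 with H2O2 and 295 in Control.

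KDM1A, the flavin-dependent demethylase LSD1 of the CoREST complex, was the most abundant member, with 1995 and 2034 normalized counts with H2O2 and 1944 and 2082 in Control. Its log2 ratio was 0.0011 in the authors' deposited table (adjusted p = 1.0). Its relative KDM1B had 405 and 520.1 with H2O2 and 472 and 397 in Control. The KDM2 enzymes, which act on H3 lysine 36, gave 911 and 935 with H2O2 and 1030.4 and 908 in Control for KDM2A, and 479.8 and 463 with H2O2 and 530.1 and 563 in Control for KDM2B. KDM3A and KDM3B, which act on H3 lysine 9, overlapped between the groups, and the authors' deposited table gives their log2 ratios as 0.033 and -0.053.

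Within the KDM4 family, which acts on H3 lysines 9 and 36, KDM4D stood alone in being higher. KDM4A had 536 and 529 with H2O2 and 715 and 632 in Control, with groups that did not overlap (log2 ratio -0.34, adjusted p = 0.114 in the authors' deposited table). This value is uncertain, since AL451062.3 holds 43.9% of the 75-base words of KDM4A. KDM4B had 469 and 535 with H2O2 and 496 and 649 in Control, and KDM4C 319 and 363 with H2O2 and 341 and 348 in Control. Of the other KDM5 demethylases of H3 lysine 4, KDM5B had 398 and 388 with H2O2 and 451 and 412 in Control, and KDM5C 1062 and 1145 with H2O2 and 1236 and 1254 in Control. All 3 KDM5 genes therefore had both H2O2 libraries below both Control libraries, as did 25.6% of all listed genes and 41.6% of those longer than 5565 bases, where all 3 lie, with KDM5B and KDM5C not past the threshold (adjusted p = 0.667 and 0.478 in the authors' deposited table). The H3 lysine 27 demethylases gave 216 and 201 with H2O2 and 275 and 219 in Control for KDM6A, and 539 and 459.8 with H2O2 and 465 and 473 in Control for KDM6B, which is often described as inducible. KDM8 was low, at 44.4 and 36.4 with H2O2 and 49.8 and 47.2 in Control.

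Among the acetyltransferases the GNAT members KAT2A (GCN5) and KAT2B (PCAF) had log2 ratios of -0.069 and 0.055 in the authors' deposited table, with overlapping libraries. KAT5 (TIP60) had 723 and 665 with H2O2 and 606 and 646 in Control, the 1 KAT gene whose groups did not overlap. It did not pass (adjusted p = 0.577 in the authors' deposited table), and 26.3% of all listed genes were likewise higher without overlap. In GENCODE release 29, 1439 of the 3732 exonic bases of KAT5 over all its transcripts (38.6%) overlap RNASEH2C on the opposite strand, and whether reads were counted by strand is not stated in the sources used here. KAT6B (MORF) followed the pattern of its paralog KAT6A, with 167 and 192 with H2O2 and 277 and 170.4 in Control, again with the deeper Control library apart. KAT7 (HBO1) had 349 and 403 with H2O2 and 467 and 395 in Control, and KAT8 (MOF, which acetylates H4 lysine 16) 543 and 507 with H2O2 and 481 and 518 in Control.

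None of the SETD genes was called. Their median log2 ratio, -0.24 in the authors' deposited table, was the lowest of the 5 classes with all libraries, but not without the deeper Control library (-0.088, against -0.12 for SIRT) or the shallower H2O2 library (-0.22, against -0.30 for KAT), in both cases by limma. SETD1A and SETD1B, the H3 lysine 4 methyltransferases of SET1 complexes, had both H2O2 libraries below both Control libraries. So did 25.6% of all listed genes and 41.6% of those longer than 5565 bases, where both lie. SETD1A had 502 and 484 with H2O2 and 603 and 599 in Control, and SETD1B 320.5 and 306 with H2O2 and 448 and 372 in Control. SETD5 had 1433 and 1395 with H2O2 and 1879.6 and 1710.1 in Control, and SETD4 199 and 195 with H2O2 and 243 and 253 in Control. The log2 ratios of SETD1A, SETD1B, SETD4 and SETD5 ran from -0.39 to -0.29 in the authors' deposited table, with adjusted p-values of 0.221, 0.0879, 0.234 and 0.0787. SETD5-AS1, an antisense transcript outside the selection, was called higher in the authors' deposited table (log2 ratio 0.48, adjusted p = 0.0474), with normalized counts of 267 and 282 with H2O2 and 197 and 197 in Control, and was not called by limma (adjusted p = 0.0642).

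SETD2, the main trimethylase of H3 lysine 36, had 403 and 456 with H2O2 and 615 and 453 in Control, so the shallower Control library again lay between the H2O2 libraries. SETD7, a lysine monomethylase, had 1026 and 1129 with H2O2 and 1275 and 1061 in Control. SETD6, which methylates the NF-kB subunit RELA, had 317 and 316 with H2O2 and 381 and 339 in Control, and SETD3, an actin histidine methyltransferase, 429 and 389 with H2O2 and 422 and 414 in Control. SETD8, the H4 lysine 20 monomethylase also called KMT5A, was listed at 35.7 and 34.3 with H2O2 and 20.1 and 34.9 in Control, and 16.4% of its 75-base words also occur in other genes, SETD8P1 among them. SETD9 had 55.0 and 71.8 with H2O2 and 47.9 and 48.2 in Control, without passing (adjusted p = 0.447 in the authors' deposited table).

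**Figure D2:**
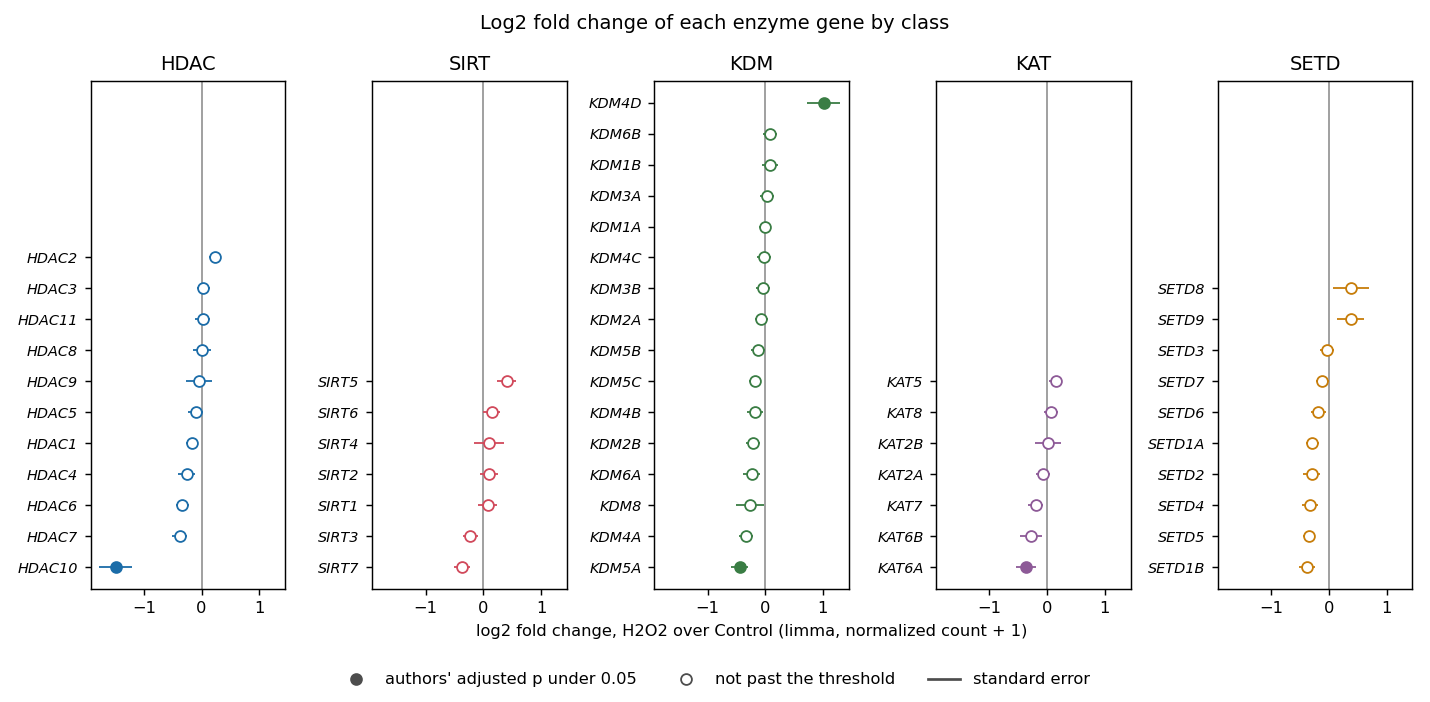
limma log2 fold change of H2O2 over Control on the log2(normalized count + 1) scale (x axis) for each of the 51 genes, in a panel per enzyme class, with bars for the standard error and filled points for an adjusted p under 0.05 in the authors' deposited table. The 4 filled points are HDAC10, KDM4D, KDM5A and KAT6A, and HDAC10 at -1.49 and KDM4D at 1.01 lie farthest from 0.

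Taken by class, the deposited ratios leaned downward, with 32 of 51 below 1 (62.7%) against 50% of all listed genes. The median log2 ratio in the authors' deposited table was -0.095 for the 51 and 3e-04 for all listed genes. By class it was -0.095 for HDAC, 0.074 for SIRT, -0.10 for KDM, -0.069 for KAT and -0.24 for SETD in the authors' deposited table. Ratios below 1 were held by 7 of 11 HDAC, 2 of 7 SIRT, 11 of 16 KDM, 4 of 7 KAT and 8 of 10 SETD genes. Both H2O2 libraries lay below both Control libraries for 19 members (37.3%), against 25.6% of all listed genes, and above them for 5 (9.8%), against 26.3%. The 19 were 5 HDAC, 2 SIRT, 7 KDM, 0 KAT and 5 SETD genes. At an unadjusted p under 0.05 in the authors' deposited table, 13 were lower (25.5%, against 11.9% of all listed genes) and 2 higher, KDM4D and SIRT5, against 7.72%. limma gave 10 lower (against 11.7%) and 3 higher (against 8.48%) at an unadjusted p under 0.05. These counts describe the members and are no test over them.

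In the summed levels of the classes, which weight abundant genes most, SETD had the lowest ratio with all libraries. The mean sum of normalized counts was 4747 with H2O2 and 5609 in Control for SETD, a ratio of 0.846, and the H2O2 libraries (4720.3 and 4774) lay below both Control libraries (5934 and 5283). For HDAC it was 5996 with H2O2 and 6193 in Control, a ratio of 0.968, with 6035 and 5956 against 6195 and 6192. For KDM it was 9888 with H2O2 and 10526 in Control, a ratio of 0.939, with 9679 and 10098 against 10716 and 10336. The groups overlapped for SIRT (1939 and 1917 with H2O2, 1897 and 2195 in Control) and for KAT (3135 and 3237 with H2O2, 3716 and 3199 in Control). Without the deeper Control library the log2 ratio of the KAT sums was -0.0056, against -0.12 with all libraries, that of the SETD sums -0.15, against -0.24, and that of the SIRT sums -0.19, against -0.085, so that SIRT and not SETD was then lowest.

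**Figure D3:**
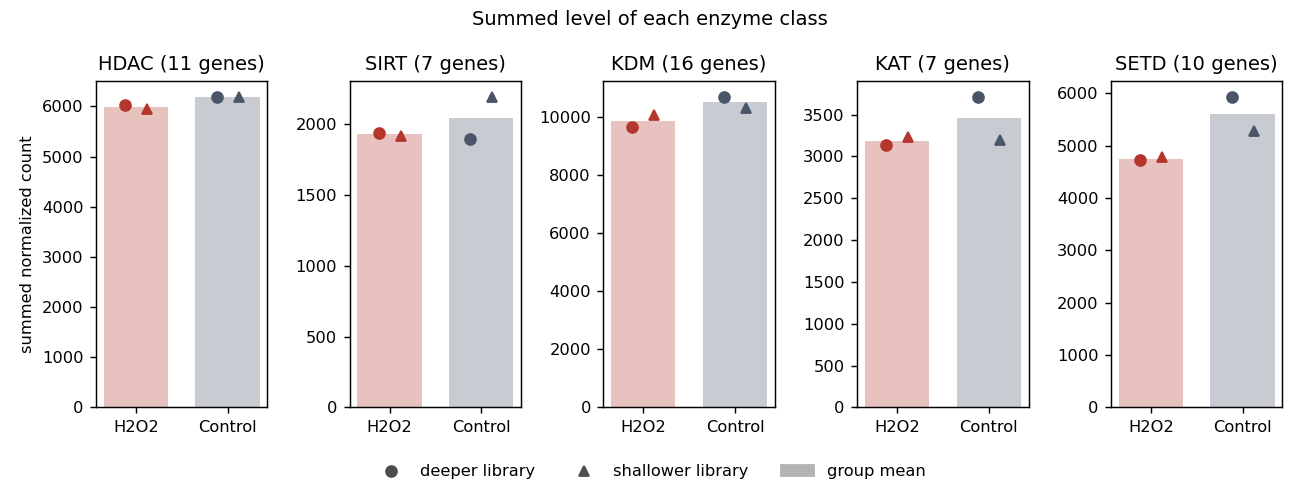
Summed normalized counts (y axis, from 0) of the genes of each enzyme class, with bars for the group mean, circles for the deeper and triangles for the shallower library. The SETD libraries separate by group, with 4720.3 and 4774 for H2O2 below 5934 and 5283 for Control, whereas for SIRT and KAT the groups overlap.

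A scale of normalized counts per kilobase of exonic length allows only a rough comparison of levels between genes. The length joins the exons of several transcripts of a gene, for SETD7 13914 bases against 7365 in its longest transcript. On this scale KDM1A was highest at 644 with H2O2 and 643 in Control. HDAC3 followed at 560.5 with H2O2 and 549 in Control, HDAC1 at 419 with H2O2 and 471 in Control, and SIRT7 at 331 with H2O2 and 432 in Control. These 4 held ranks 1 to 4 in both groups. The lowest in Control were HDAC9, at 4.55 with H2O2 and 4.67 in Control, SETD8, at 11.2 with H2O2 and 8.76 in Control, and KDM4D, at 16.0 with H2O2 and 7.87 in Control. HDAC10 held rank 50 of 51 with H2O2 and rank 46 in Control. KAT5, KAT8 and KAT2A led their class at 279.5, 245 and 187 with H2O2 and 252, 234 and 196 in Control, and SETD5 led the SETD genes at 201 with H2O2 and 256 in Control.

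Members grouped as erasers and as writers were set side by side on the per-kilobase scale, in groups drawn up with the values known. The groups hold members alone. They leave out the sirtuins, KMT2D and other methyltransferases without a SETD symbol, and acetyltransferases without a KAT symbol. Enzymes of different methyl states of a site are pooled. HDAC6, HDAC10 and HDAC11 are counted as erasers, though described above with tubulin, polyamines and fatty acyl groups. The ratios therefore do not give the balance of erasers and writers of any single mark. The summed demethylases of H3 lysine 4 (KDM1A, KDM1B and the 3 KDM5 genes) over the summed methyltransferases of that site (SETD1A, SETD1B and SETD7) gave 4.96 and 5.14 in the H2O2 libraries and 4.15 and 4.69 in the Control libraries. The 11 HDAC genes over the 7 KAT genes gave 1.88 and 1.86 in the H2O2 libraries and 1.96 and 2.005 in the Control libraries. The groups did not overlap in either ratio, and the gap in the first was smaller than the spread between its Control libraries. For H3 lysine 36 the ratio of KDM2A, KDM2B, KDM4A, KDM4B and KDM4C to SETD2 was 8.33 and 7.64 in the H2O2 libraries and 6.38 and 8.53 in the Control libraries, which overlapped.

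The deeper Control library was the highest of the 4 libraries for 22 of the 51 genes, and the shallower one for 12. No share over all listed genes was taken for these counts. Set against the deeper Control library, the H2O2 libraries gave a median log2 difference of -0.16 over the 51 genes, and set against the shallower one -0.067. Over all listed genes these medians were -0.0026 and 4e-04. Over listed genes longer than 5565 bases they were -0.24 and -0.056, so the split between the Control libraries was not particular to these enzymes. For the SETD genes these medians were -0.28 and -0.088, for KAT -0.10 and 0.017, and for SIRT 0.32 and -0.12. HDAC10 was among the 19 members lower than both Control libraries, and KDM4D, HDAC2 and SIRT5 were among the 5 higher than both. By the mean of the H2O2 libraries, KAT6A and KAT6B were lower than the deeper Control library only. So were SETD7, KDM2A, KDM3B and SIRT1, among others.

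**Figure D4:**
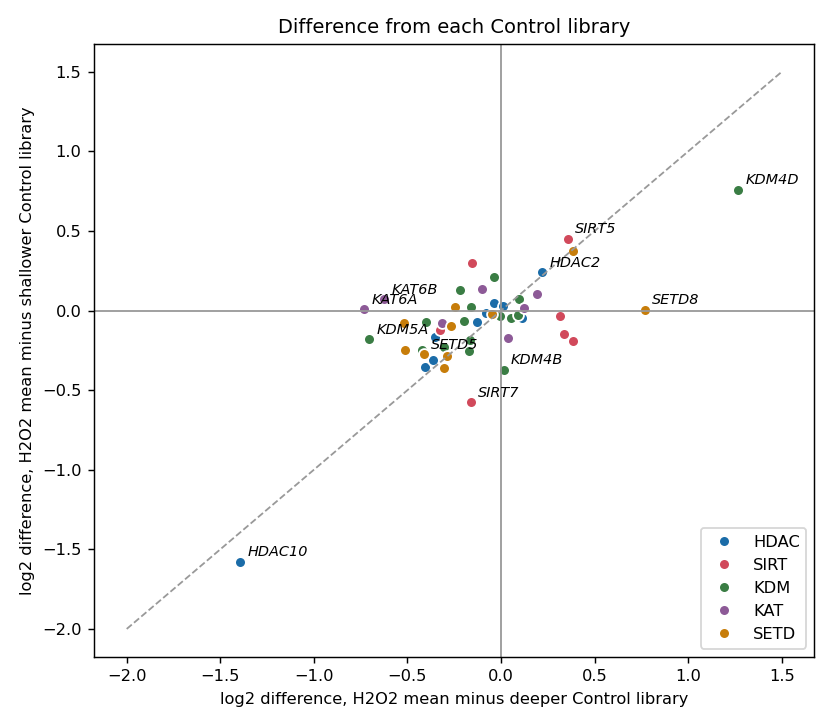
Mean log2(normalized count + 1) of the H2O2 libraries minus that of the deeper Control library (x axis) and of the shallower Control library (y axis) for each of the 51 genes, coloured by class, with the dashed line marking equal differences. HDAC10 lies far down, near the dashed line, while KAT6A and KAT6B are well below 0 on the x axis and near 0 on the y axis.

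Transcript length, which the selection did not use, tended to be high among the enzyme genes, although 17 of the 51 were no longer than the median listed gene. Their median exonic length was 5080 bases, against 3595 for the listed genes with a length, and 24 of the 51 fell above 5565 bases, the upper quartile of all lengths. Across genes the deposited log2 ratio fell with length, with a Spearman rho of -0.32 over the 51 and -0.34 over 13921 listed genes, and the log2 difference of the deeper over the shallower Control library rose with length over the 51 (rho 0.61). These genes share the same 4 libraries, and rho is given as a description. Among the 24 long members both H2O2 libraries lay below both Control libraries for 41.7%, against 41.6% of all listed genes of that length, and among the other 27 for 33.3%, against 20.5%. The median log2 ratio in the authors' deposited table was -0.19 for the 24 long members, against -0.15 for long genes in general, and 0.021 for the other 27, against 0.053. After removal of each library's trend on length, the limma median over the 51 genes was -0.033, against -0.10 before, and that of the SETD genes -0.16, against -0.23. In that fit HDAC10 (adjusted p = 0.00486) and SIRT7 (adjusted p = 0.0139) were called lower and HDAC2 higher (adjusted p = 0.0124), against 3.14% and 2.05% of the 13921 genes, while KDM5A (adjusted p = 0.3) and KAT6A (adjusted p = 0.687) were not called.

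**Figure D5:**
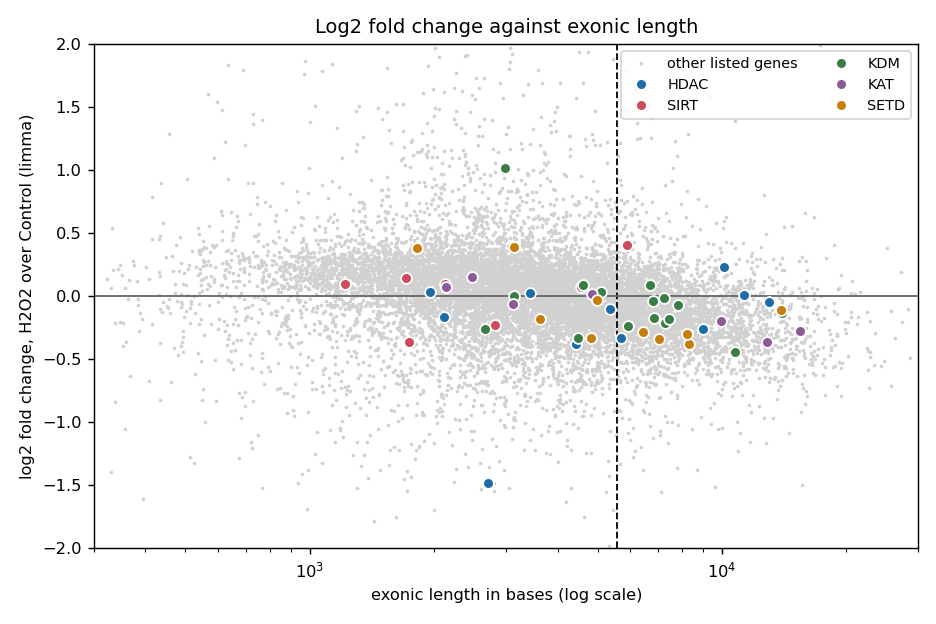
limma log2 fold change of H2O2 over Control (y axis) against exonic length in bases (x axis, log scale) for the 51 genes, coloured by class, and the other listed genes in grey, of which 115 lie outside the axes. The dashed line marks 5565 bases, and most members to its right lie below 0.

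Partner genes of the enzymes were counted in 5 lists, to be read against the 4.62% of all listed genes called lower and the 2.58% called higher in the authors' deposited table, and against 9.8% and 0.834% of genes longer than 5565 bases. Of 18 listed bromodomain proteins, which read acetylated lysines, 4 were called lower (22.2%) and none higher in the authors' deposited table, with a median log2 ratio of -0.24 and a median exonic length of 8196 bases. BRD9, a subunit of a SWI/SNF complex, had 433 and 518 with H2O2 and 769 and 689.8 in Control, and limma called it lower (log2 fold change -0.62 ± 0.12, SE, adjusted p = 0.0109). BRWD3, BRWD1 and CECR2 were the other 3, called by the authors' test and not by limma (adjusted p = 0.108, 0.137 and 0.0977). Of 37 listed methyltransferases outside the SETD name and their partners, KMT2D, KMT2C, ASH1L and KMT2A were called lower (10.8%) and none higher in the authors' deposited table, with a median of -0.12. limma also called KMT2D and KMT2C lower (log2 fold changes of -0.79 ± 0.19 and -0.62 ± 0.16, SE, adjusted p = 0.027 and 0.0438), and did not call ASH1L or KMT2A (adjusted p = 0.0624 and 0.184). KMT2D, an H3 lysine 4 methyltransferase of enhancers, had 1074 and 1026 with H2O2 and 2441 and 1359 in Control, so its Control libraries differed more from each other than the shallower one did from the H2O2 libraries. KMT2A had 820.5 and 935 with H2O2 and 1652 and 902 in Control, and the groups overlapped.

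Of 35 listed subunits of deacetylase complexes, 1 was called higher (2.86%) and 3 lower (8.57%) in the authors' deposited table, with a median log2 ratio of -0.055. ING1, a reader of methylated H3 lysine 4 in Sin3 complexes, had 642 and 634.5 with H2O2 and 363 and 405 in Control and rose in both tests (limma log2 fold change 0.73 ± 0.12, SE, adjusted p = 0.0033). The corepressor RCOR3 fell in both tests, with a limma log2 fold change of -0.56 ± 0.14 (SE, adjusted p = 0.0345), and ZMYM2 was called lower by the authors' test and not by limma (adjusted p = 0.0551). Of 13 listed JmjC proteins without a KDM symbol, JMJD6, a lysyl hydroxylase, had 963 and 921 with H2O2 and 600.03 and 702 in Control and rose in both tests (limma log2 fold change 0.54 ± 0.12, SE, adjusted p = 0.0168). JHDM1D, now named KDM7A, and PHF8, both demethylases, were called lower in the authors' deposited table (ratios of 0.707 and 0.733) and not by limma (adjusted p = 0.0934 and 0.0694). The median of that list was -0.19 in the authors' deposited table. Of 44 listed acetyltransferases without a KAT symbol and their partners, DMAP1 was the 1 called lower (2.27%) and none was called higher in the authors' deposited table, with a median of -0.038, and limma did not call DMAP1 (adjusted p = 0.0511).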

How the data were processed

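RNA from 2 H2O2 and 2 Control samples of HCT116 cells was sequenced after poly(A) selection, per the labels' protocols. STAR, HTSeq and DESeq, with Trim Galore, FastQC, CASAVA 1.8 and the build hg19, are listed in the submitters' processing notes. Settings, annotation and strandedness: not given in the sources used here. What the authors deposited is a table of 16376 genes, with the mean signal of each group (counts divided by size factors), the fold ratio, its log2 and the p-values of their test, raw and Benjamini-Hochberg adjusted, per the file headers. It holds 0 columns of single samples.

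Each group mean was solved for the pair of whole counts and size factors behind it, within 1e-09, and the solution was single for every gene. The solving and the limma fit were run on simulated data, where limma found 48.0% of 1.5-fold and 96.0% of 2-fold changes. The simulation gave all libraries the same spread at a given mean and no trend on length, unlike these libraries. It therefore does not show how the fit performs on them. The main calls are those of the authors' own test, at an adjusted p below 0.05. limma 3.58.1 in R 4.3.3, fitted to log2(normalized count + 1) with a trended prior variance, gave standard errors and the alternatives: other thresholds, pseudocounts of 0.5 and 5, a minimum mean of 50, other scalings, a left-out library and removal of a lowess trend on length. Lengths and overlaps came from GENCODE release 29, on another build than the counts, matched by symbol for 85.0% of listed genes, 86.4% of called genes and all 51 members. Precision is limited by 2 libraries per group, at the depths given in the opening of the results.

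The members and lists were chosen with earlier results of these data known. Single genes were named where they passed an adjusted or unadjusted p under 0.05, were called by limma, or had the extreme mean or log2 ratio of their class, and the other members were given for completeness. From each list at most 5 called genes were named. Members with no entry in the promoter table are named only. Some genes of the lists are not reported here.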

Additional observations from a re-analysis of the deposited data

How the results depend on the processing

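No paired analysis was possible because the deposited table carries group means without replicate numbers. The counts of called members depended on the test. At an adjusted p under 0.01 in the authors' deposited table, 0 members were called higher and 1 lower (1.48% and 2.44% of all listed genes), at 0.1 there were 7 lower (6.51% of all), and with adjustment over genes of mean at least 50, which leaves out KDM4D and HDAC10, there were 0 higher. limma called 0 higher and 1 lower (HDAC10) with pseudocounts of 1, 0.5 and 5 and with libraries scaled to the same total or upper quartile, and 0 higher and 0 lower over genes of mean at least 50, where HDAC10 is not tested. Of all genes these settings other than the first called 1.01% to 1.73% higher and 2.31% to 2.79% lower. Its unadjusted p was under 0.05 for 3 higher and 10 lower members. Leaving out each library in turn gave 0 to 1 higher and 1 to 12 lower. The 12 were found without the shallower Control library, where 11.6% of all genes were called lower, and 6 without the deeper one, where 4.81% were. These fits assume that the lone library varies like the pair of the other group.

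The median log2 ratio with each library left out ran from -0.16 to -0.067 for the 51 members, from -0.17 to -0.074 for HDAC, from -0.12 to 0.32 for SIRT, from -0.16 to -0.057 for KDM, from -0.30 to 0.017 for KAT and from -0.28 to -0.088 for SETD. The log2 ratio of summed levels ran from -0.056 to -0.037 for HDAC, from -0.19 to 0.024 for SIRT, from -0.22 to -0.0056 for KAT and from -0.32 to -0.15 for SETD. After removal of the length trend the medians were -0.033 for the members, 0.021 for KDM and -0.16 for SETD. The HDAC median was -0.066 over members of mean at least 50. The summed HDAC levels gave -0.063 scaled to the same total and -0.080 per length, and the summed KAT levels 0.0064 per length.

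Changes of sign were counted over the genes named for a p-value or as an extreme of their class. Members given for completeness were not counted, and some of them also changed sign with a library left out. SIRT1, for example, gave 0.30 without the deeper Control library and -0.15 without the shallower one. The log2 ratios of 6 named genes changed sign, among them KAT6A, which is called in the authors' deposited table, and KAT6B. With libraries left out they ran from -0.34 to 0.37 for KAT2B, from -0.73 to 0.0070 for KAT6A, from -0.63 to 0.073 for KAT6B, from -0.048 to 0.051 for KDM1A, from -0.094 to 0.26 for KDM1B and from -0.19 to 0.38 for SIRT4. KAT2B gave -0.10 and KDM1B -0.038 without the shallower Control library, KDM1A -0.012 without the shallower H2O2 library and SIRT4 -0.0048 without the deeper one. After removal of the length trend they were 0.024 for KAT6B, -0.034 for KDM1A and -0.034 for SIRT4, and KDM1A gave -0.015 with libraries scaled to the same total. Apart from the left-out libraries and the length trend, whose construction sets the change, the cause was not tested.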

Other observations

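The count of SIRT7 over that of SIRT6, a pair chosen after its values were seen, was 1.71 and 1.51 in the H2O2 libraries and 2.24 and 2.33 in the Control libraries. KDM5A over KDM5C gave 0.352 and 0.324 in the H2O2 libraries and 0.492 and 0.336 in the Control libraries, with the deeper Control library again apart. KAT6A over KAT7 gave 2.04 and 1.88 in the H2O2 libraries and 2.62 and 1.85 in the Control libraries, and the groups overlapped.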
